A study of Gallus gallus with 12 samples.

Results

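The genes described here encode orphan and adhesion G protein-coupled receptors of chicken DT40 cells, a B cell line derived from an avian leukosis virus-induced bursal lymphoma. This group was chosen with earlier results of these data known, and GPR142 and GPR27 were named beforehand. Its members were taken by symbol, as every gene whose symbol is GPR, ADGR with a family letter, or GPRC followed by a number. This rule took 75 of the 24356 genes in the deposited tables, of which 49 carry a plain GPR number, 17 are adhesion receptors, 3 are class C receptors and 6 are GPR-numbered proteins of internal membranes or without a shown G protein partner. GPR133, the older symbol of the adhesion receptor ADGRD1, stands in the files and is counted under its GPR number. RNA was sequenced from 3 cell populations of each of 4 lines. The timeless line carried a CRISPR-Cas9 disruption of TIMELESS in exon 1, the ddx11 line a CRISPR-Cas9 disruption of DDX11 in exon 4, the fancj line an earlier disruption of FANCJ (gene symbol BRIP1), and the wild type line none of these. All lines grew in the same RPMI medium with bovine and chicken serum, without treatment. The sources used here do not say which clone of a mutant was sequenced, so the spread between the 3 populations of a line does not cover differences between clones.

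G protein-coupled receptors cross the plasma membrane with a bundle of helices and pass an outside signal to a heterotrimeric G protein within the cell. Many GPR-numbered genes were named from sequence before a ligand was known, and several have since been paired with lipids or amino acids. Adhesion receptors carry long extracellular parts, which in many but not all of them cut themselves near the membrane. In lymphocytes, receptors of these kinds are known for steering cell position and activation.

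The libraries held 13406041 to 50160512 expected counts, the sum over genes of the reads that RSEM assigned to them. Libraries of one line ranked genes alike (Spearman rho of at least 0.945 across genes) except for fancj replicate 3. Its rho with the other fancj libraries was 0.903 and 0.905. Receptors called in fancj against wild type or ddx11 are therefore also given without this library, but some alternative fits and other fancj results are not. Levels are given as TPM, which are scaled for transcript length and to one total per library. TIMELESS was at 24.3, 21.4 and 22.6 TPM in timeless cells, against 40.8, 34.2 and 48.4 TPM in wild type. DDX11 was at 4.79, 7.03 and 4.53 TPM in ddx11 cells, against 10.5, 12.7 and 15.5 TPM in wild type. BRIP1 was at 7.81, 8.47 and 1.23 TPM in the libraries labelled fancj, against 8.52, 5.16 and 6.59 TPM in wild type, so replicates 1 and 2 did not show a lower level of the gene they are labelled for, and fancj is used below as the label of these libraries. All 10 B cell markers examined reached 1 TPM in some library. Their summed levels were 832 to 1340 TPM in timeless, 1120 to 1380 in ddx11, 479 to 1130 in fancj and 1050 to 1710 in wild type libraries. Of 6 myeloid markers listed, 5 were among the genes, and each reached 1 TPM in some library. These 5 summed to 88.0 to 144, 61.2 to 76.9, 81.4 to 88.5 and 48.5 to 102 TPM in the same lines. The sums of 2 erythroid and 6 fibroblast markers were at most 10.8 and 24.1 TPM in any library.

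Most of these receptors were silent or nearly so in DT40 cells. A receptor was called expressed where its 3 libraries averaged 1 TPM or more. This held for 22 of the 75 genes in timeless (29.3%), 23 in ddx11 (30.7%), 22 in fancj (29.3%) and 21 in wild type cells (28.0%). Over all genes with a symbol, the expressed share was 63.2%, 62.5%, 64.3% and 61.5% in the same lines. In all, 19 receptors were expressed in every line and 8 in some lines only. Another 29 gave more than 3 expected counts in a library without reaching that mean, 11 never exceeded 3 counts, and 8 were listed at 0 in all 12 libraries (ADGRA1, ADGRF5, ADGRG1, ADGRG2, GPR12, GPR19, GPR26 and GPR78). Receptors at or under 3 counts may be present below the depth of these libraries.

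The classes differed in how many members were expressed. All 6 proteins of internal membranes or without a shown G protein partner were expressed in every line. Among them were GPR107, a Golgi protein of membrane trafficking, GPR89B, an anion channel of the Golgi, and GPR155, a cholesterol-binding protein of lysosomes. Of the 17 adhesion receptors, 2 were expressed in timeless, 3 in ddx11, 1 in fancj and 1 in wild type cells. ADGRA3 was the adhesion receptor expressed in all 4 lines, averaging 8.69 ± 2.57 TPM in timeless, 8.82 ± 4.66 in ddx11, 9.80 ± 7.43 in fancj and 10.7 ± 0.564 in wild type cells (SD, n = 3 each). Its expected counts were not all whole numbers, so part of its reads was shared with other genes, as was also the case for GPR137B and GPR89B. Among the 3 class C receptors, GPRC5C alone was expressed in any line. The 8 receptors expressed in some lines only all lay near the limit, with line means of at most 2.20 TPM, the value of GPR153 in the libraries labelled fancj.

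The 6 receptors with the highest mean in wild type cells were, in falling order, GPR157, GPR174, GPR107, GPR176, GPR171 and GPR37, with means of 26.9 ± 9.06, 23.1 ± 3.29, 23.1 ± 3.38, 20.8 ± 1.42, 18.5 ± 5.70 and 18.2 ± 6.91 TPM (SD, n = 3). Neighbours in this order differed by less than the larger of their SDs. GPR107 had 28.15, 30.41 and 18.65 TPM in timeless, 30.36, 26.98 and 22.64 in ddx11, 33.61, 32.19 and 15.53 in fancj and 26.55, 22.88 and 19.80 in wild type libraries, with overlap between each mutant and wild type. GPR176, an orphan receptor of the circadian clock centre in the mouse brain, had 16.86, 18.37 and 18.34 TPM in timeless, 24, 18.70 and 19.25 in ddx11, 16.47, 18.12 and 13.54 in fancj and 21.84, 19.19 and 21.38 in wild type libraries. The GPR176 levels of timeless and of fancj lay below every wild type library, but the log2 fold changes were only -0.15 (SE 0.17, adjusted p = 0.678, edgeR) and -0.33 (SE 0.21, adjusted p = 0.501, edgeR).

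**Figure D1:**
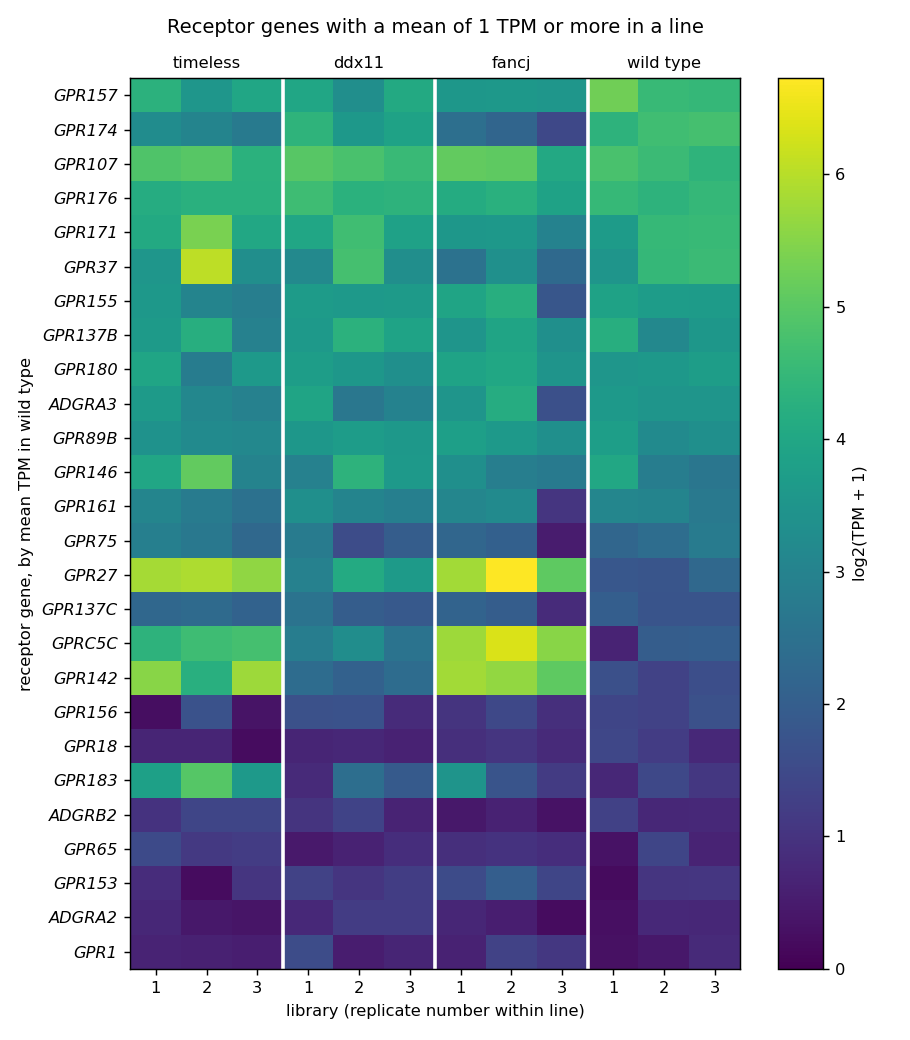
Heat map of log2(TPM + 1) for 26 of the 27 receptor genes that averaged 1 TPM or more in some line. Rows are genes ordered by mean TPM in wild type cells, columns are the 3 libraries of each of the timeless, ddx11, fancj and wild type lines, and brighter colours are higher levels. GPR27, GPRC5C and GPR142 are bright in timeless and fancj libraries and dark in wild type, while GPR174 shows the reverse.

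In timeless cells 4 receptors rose and 1 fell against wild type. GPR27, GPR142, GPRC5C and GPR183 were 10.6 to 21.9-fold higher and GPR174 was at 0.322 of its wild type level. These were 5 of the 24 receptors tested, beside 8.20% of all 11653 genes tested, at a Benjamini-Hochberg adjusted p under 0.05 over all genes in edgeR's quasi-likelihood test. In the same fit 4.31% of genes were called higher and 3.89% lower. Of the lower genes 357 were matched by symbol to RefSeq, and 191 of these lay on a single chromosome. These 191 genes are part of the 3.89% lower and 8.20% altered. None of the 22 tested receptors that were matched lay there, and the 4 receptors that did were not tested. Genes entered the test where either line averaged 1 TPM or more. The median log2 fold change of the receptors tested was 0.22, beside 0.011 over all genes. With no limit on TPM, 6 of 63 receptors were altered (9.52%), beside 7.62% of 18219 genes. An exact permutation test of 3 libraries against 3 cannot give a two-sided p below 0.1, so calls rest on the fit across genes. In bulk RNA, more cells expressing a gene and more RNA per cell cannot be told apart.

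GPR27 (ENSGALG00000054150) belongs with GPR85 to a family of orphan receptors that are highly conserved and expressed in mammalian brain. It had 55.10, 58.25 and 48.02 TPM in timeless libraries, against 2.53, 2.41 and 3.87 TPM in wild type. The lowest timeless library was above the highest wild type library, and the log2 fold change was 4.27 (SE 0.24, adjusted p = 9.6e-05, edgeR). The expected counts behind these levels were 977, 695 and 672 in timeless, against 25, 91 and 49 in wild type, so GPR27 was low but not silent in wild type cells.

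GPR142 (ENSGALG00000022536), a receptor for tryptophan in mouse and human pancreatic islets, had 45.38, 17.78 and 52.43 TPM in timeless libraries, against 2.12, 1.49 and 2.04 TPM in wild type. Replicate 2 was the lowest timeless library and was still above all wild type libraries, with a log2 fold change of 4.45 (SE 0.44, adjusted p = 0.00114, edgeR). Its expected counts were 842, 222 and 768 in timeless, against 22, 59 and 27 in wild type.

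GPRC5C (ENSGALG00000021362), an orphan class C receptor of the retinoic acid-inducible group, had 19.28, 24.10 and 25.63 TPM in timeless libraries, against 0.58, 2.94 and 3.01 TPM in wild type. The groups did not overlap, and the log2 fold change was 3.40 (SE 0.49, adjusted p = 0.00549, edgeR).

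GPR183 (ENSGALG00000016881), the oxysterol receptor that guides B cells within mouse lymphoid follicles, had 13.04, 30.00 and 11.40 TPM in timeless libraries, against 0.69, 1.76 and 1.11 TPM in wild type. Every timeless library was above every wild type library (log2 fold change 3.92, SE 0.50, adjusted p = 0.00335, edgeR). GPR183 and its neighbour GPR18 are known to lie within UBAC2 in mammals, and whether reads were counted by strand is not given in the sources used here. UBAC2 was at 21.4, 18.1 and 17.2 TPM in timeless, against 20.5, 19.3 and 19.8 TPM in wild type, and its log2 fold change was -0.01 (SE 0.15).

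GPR174 (ENSGALG00000004111), a lysophosphatidylserine receptor of mammalian lymphocytes, had 8.66, 7.14 and 5.75 TPM in timeless libraries, against 19.38, 24.42 and 25.56 TPM in wild type. All timeless libraries lay below all wild type libraries (log2 fold change -1.63, SE 0.19, adjusted p = 0.00261, edgeR). The summed level of 8 T cell markers was 52.7 to 126 TPM in timeless, 57.1 to 103 in ddx11, 56.3 to 90.7 in fancj and 159 to 219 TPM in wild type libraries, with CD4 and ZAP70 under 1 TPM in all of them. The part of these markers in the GPR174 result was not tested.

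The other 19 receptors tested in timeless against wild type did not pass the threshold, and their lowest log2 fold change was -1.36. GPR157, a receptor of primary cilia in mouse neural progenitors, had 19.14, 10.68 and 14.87 TPM in timeless libraries, against 37.35, 22.03 and 21.31 TPM in wild type, without overlap and with an adjusted p of 0.126 in edgeR. In all, 11 of the 24 receptors tested did not overlap between timeless and wild type libraries, beside 27.6% of all genes tested. GPR37, known in humans as a substrate of the ubiquitin ligase parkin, had 10.59, 65.67 and 9.06 TPM in timeless libraries, against 10.34, 21.30 and 23.11 TPM in wild type. GPR171, paired in mouse with the neuropeptide BigLEN, had 16.12, 40.31 and 15.46 TPM in timeless libraries, against 11.95, 21.64 and 22.01 TPM in wild type. For both genes timeless replicate 2 stood far above the other timeless libraries and the groups overlapped. Without that library the log2 fold change of GPR37 was -0.85 (adjusted p = 0.188, edgeR), against 0.70 with it.

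**Figure D2:**
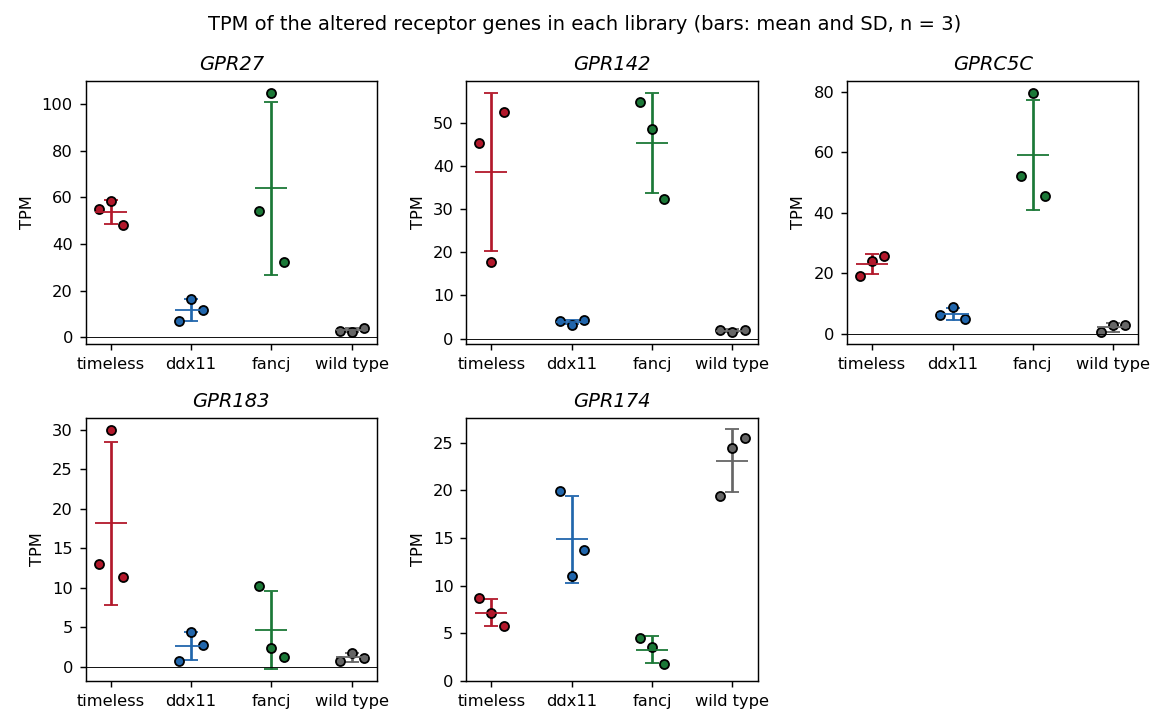
TPM of 5 altered receptor genes in each library, with the mean and SD of the 3 libraries of each line drawn as bars. GPR27 reaches 48.02 to 58.25 TPM in timeless and 32.37 to 104.79 TPM in the libraries labelled fancj, against at most 3.87 TPM in wild type, whereas GPR174 is lowest in the libraries labelled fancj.

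In ddx11 cells a single receptor, GPR27, passed the threshold against wild type. It was 1 of 24 receptors tested, beside 2.62% of the 11470 genes tested (1.41% higher, 1.21% lower). GPR27 had 6.77, 16.25 and 11.65 TPM in ddx11 libraries, against 2.53, 2.41 and 3.87 TPM in wild type. The lowest ddx11 library was above all wild type libraries, and the log2 fold change was 1.95 (SE 0.40, adjusted p = 0.0375, edgeR). This call was fragile, since it was kept in only 1 of the 6 fits that left out a library, the one without ddx11 replicate 1. The adjusted p in edgeR was 0.0655, 0.15 and 0.089 without wild type replicates 1, 2 and 3, and 0.125 and 0.165 without ddx11 replicates 2 and 3.

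GPR142 had 4.15, 3.24 and 4.23 TPM in ddx11 libraries, against 2.12, 1.49 and 2.04 TPM in wild type, and GPRC5C had 6.18, 8.87 and 4.87 TPM, against 0.58, 2.94 and 3.01 TPM. Neither gene overlapped between the lines, but their log2 fold changes of 0.99 (SE 0.33) and 1.49 (SE 0.51) had adjusted p-values of 0.247 and 0.254 in edgeR. GPR174 had 19.91, 11 and 13.76 TPM in ddx11 libraries, with replicate 1 inside the wild type range (log2 fold change -0.73, SE 0.20, adjusted p = 0.139, edgeR). GPR183 had 0.74, 4.35 and 2.76 TPM in ddx11 libraries and overlapped with wild type (log2 fold change 1.06, SE 0.63, adjusted p = 0.613, edgeR). GPR157 had 14.86, 9.01 and 16.09 TPM in ddx11 libraries, all below wild type (log2 fold change -1.08, SE 0.28, adjusted p = 0.102, edgeR). Without overlap between ddx11 and wild type there were 5 of the 24 receptors tested, beside 14.4% of all genes tested. The median log2 fold change was 0.11 for the receptors and 9.5e-05 for all genes.

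In the libraries labelled fancj 3 receptors rose and 1 fell against wild type. GPR27, GPR142 and GPRC5C were 21.1, 24.5 and 26.5-fold higher, and GPR174 was at 0.139 of its wild type level. These were 4 of 23 receptors tested, beside 4.28% of 11824 genes (2.87% higher, 1.41% lower). Without fancj replicate 3 the same 4 were called, and GPR157 was added.

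GPR27 had 54.30, 104.79 and 32.37 TPM in the libraries labelled fancj, against 2.53, 2.41 and 3.87 TPM in wild type (log2 fold change 4.40, SE 0.40, adjusted p = 0.00382, edgeR). GPR142 had 54.85, 48.43 and 32.33 TPM in the libraries labelled fancj, against 2.12, 1.49 and 2.04 TPM in wild type (log2 fold change 4.62, SE 0.27, adjusted p = 0.00135, edgeR). For both genes replicate 3 was the lowest fancj library and still far above wild type. Without replicate 3 their log2 fold changes were 4.60 and 4.65 (adjusted p = 0.00206 and 0.000646, edgeR).

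GPRC5C had 52.00, 79.56 and 45.45 TPM in the libraries labelled fancj, against 0.58, 2.94 and 3.01 TPM in wild type (log2 fold change 4.73, SE 0.57, adjusted p = 0.00996, edgeR). Its log2 fold change without fancj replicate 3 was 4.64 (adjusted p = 0.00722, edgeR). Leaving out wild type replicate 2 or 3, which leaves the low wild type replicate 1 with 1 other library, gave 5.01 and 4.99 with adjusted p-values of 0.06 and 0.0602 in edgeR.

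GPR174 had 4.50, 3.57 and 1.77 TPM in the libraries labelled fancj, against 19.38, 24.42 and 25.56 TPM in wild type (log2 fold change -2.84, SE 0.28, adjusted p = 0.00569, edgeR). The 3 fancj libraries were all below the 3 wild type libraries, and the value without fancj replicate 3 was -2.67 (adjusted p = 0.00313, edgeR). GPR183 had 10.24, 2.37 and 1.24 TPM in the libraries labelled fancj, where replicates 1 and 2 stood above the wild type range of 0.69 to 1.76 TPM and replicate 3 lay within it (log2 fold change 1.85, SE 0.76, adjusted p = 0.276, edgeR).

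Other receptors were low in the libraries labelled fancj without passing the threshold. GPR37 had 4.78, 9.44 and 3.94 TPM in the libraries labelled fancj, against 10.34, 21.30 and 23.11 TPM in wild type, without overlap (log2 fold change -1.61, SE 0.40, adjusted p = 0.0741, edgeR). In a fit blocked on replicate its value was -1.57 and its adjusted p in edgeR 0.0488, which passes the threshold in a fit that called 4.19% of genes. GPR157 had 10.71, 11.10 and 10.59 TPM in the libraries labelled fancj and lay below all wild type libraries (log2 fold change -1.24, SE 0.31, adjusted p = 0.0799, edgeR). Its value without fancj replicate 3 was -1.46 with an adjusted p of 0.0311 in edgeR. GPR171 had 10.84, 10.94 and 6.86 TPM in the libraries labelled fancj, below the lowest wild type value of 11.95 TPM (log2 fold change -0.95, SE 0.29, adjusted p = 0.141, edgeR). In all, 9 of 23 receptors tested did not overlap between fancj and wild type, beside 23.0% of all genes tested. The median log2 fold change was -0.25 for the receptors tested and 0.027 for all genes.

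Of the 27 receptors expressed in some line, 12 had their lowest of the 12 libraries in fancj replicate 3, beside 42.4% of the 12320 genes expressed in some line. GPR155 had 14.12, 17.45 and 2.49 TPM in the libraries labelled fancj. GPR161, a negative regulator of Hedgehog signalling in cilia, had 7.43, 8.29 and 1.06 TPM in them, and GPR75 had 3.68, 3.17 and 0.42 TPM. ADGRA3 had 10.39, 16.92 and 2.10 TPM in the same libraries. For GPR155, GPR161 and ADGRA3 replicate 3 alone lay below the wild type range.

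**Figure D3:**
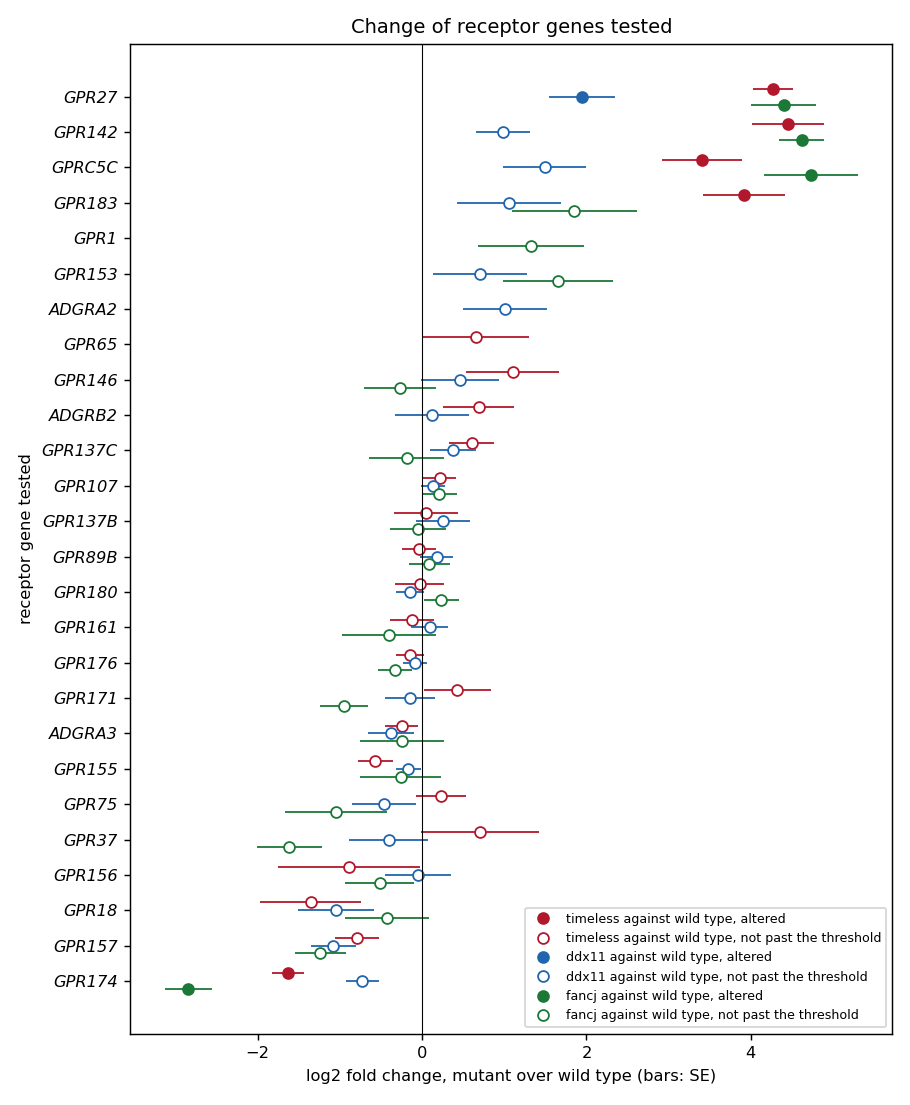
Log2 fold change of receptor genes tested, mutant over wild type, with bars of 1 SE. Filled points passed an adjusted p of 0.05 in edgeR and open points did not. GPR27, GPR142 and GPRC5C stand at 3.40 to 4.73 in timeless cells and the libraries labelled fancj and at 0.99 to 1.95 in ddx11 cells, while GPR174 stands at -0.73 to -2.84.

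The mutants were also set against each other, since passing a threshold in one line and missing it in another does not show a difference. All mutants were compared with the same wild type libraries, so the 3 comparisons above are not independent. Timeless exceeded ddx11 cells in 5 of 25 receptors tested, beside 5.12% of 11736 genes altered (2.96% higher, 2.16% lower). They included GPR142 (log2 fold change 3.46, SE 0.42, adjusted p = 0.00327, edgeR), GPR27 (2.32, SE 0.34, adjusted p = 0.00695, edgeR), GPRC5C (1.92, SE 0.29, adjusted p = 0.00777, edgeR) and GPR183. GPR183 was 2.88 higher on the log2 scale (SE 0.64, adjusted p = 0.0402, edgeR), a call kept in 3 of 6 fits that left out a library, with adjusted p-values in edgeR of 0.0576, 0.0732 and 0.143 without timeless replicates 1 and 3 and ddx11 replicate 3.

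GPR174 had 8.66, 7.14 and 5.75 TPM in timeless libraries, against 19.91, 11 and 13.76 TPM in ddx11 libraries. The log2 fold change was -0.91 (SE 0.23, adjusted p = 0.0571, edgeR). Blocking on replicate gave -0.89 with an adjusted p of 0.0163 in edgeR, in a fit that called 13.9% of genes.

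The libraries labelled fancj exceeded ddx11 cells in GPR142 (log2 fold change 3.63, SE 0.27, adjusted p = 0.00382, edgeR) and GPRC5C (3.23, SE 0.32, adjusted p = 0.0113, edgeR), and fell below them in GPR174 (-2.12, SE 0.32, adjusted p = 0.0381, edgeR). These were 3 of 24 receptors tested, beside 0.782% of 11897 genes (0.563% higher, 0.219% lower). GPR27 had 54.30, 104.79 and 32.37 TPM in the libraries labelled fancj, against 6.77, 16.25 and 11.65 TPM in ddx11 libraries, without overlap (log2 fold change 2.45, SE 0.45, adjusted p = 0.0639, edgeR). Leaving out fancj replicate 3 kept the 3 calls and added GPR27. Leaving out single ddx11 libraries or fancj replicate 2 lost calls. GPR142 lost its call without ddx11 replicate 1 or 2 (adjusted p = 0.0613 and 0.0511, edgeR). GPRC5C and GPR174 lost theirs without ddx11 replicates 1, 2 or 3 or fancj replicate 2, with adjusted p-values in edgeR of 0.0511 to 0.104 for GPRC5C and 0.131 to 0.201 for GPR174.

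None of the 25 receptors tested passed the threshold between the libraries labelled fancj and timeless cells, beside 0.85% of 11995 genes in edgeR (0.417% higher, 0.434% lower). At an unadjusted p under 0.05 there were 8, beside 14.5% of all genes, and DESeq2 called 6 (ADGRB2, GPR171, GPR174, GPR183, GPR37 and GPRC5C), beside 7.08% of the 11967 genes to which it gave an adjusted p. For GPR27 the log2 difference was 0.13, with an interval of 1.96 SE on each side running from -0.46 to 0.72, and for GPR142 it was 0.17, with an interval from -0.62 to 0.96. Since 1.96 belongs to the normal distribution, these intervals are narrower than edgeR's quasi-likelihood test would give at the same coverage. GPRC5C had 52.00, 79.56 and 45.45 TPM in the libraries labelled fancj, against 19.28, 24.10 and 25.63 TPM in timeless libraries. These did not overlap (log2 fold change 1.31, SE 0.27, adjusted p = 0.0831, edgeR), and blocking on replicate gave 1.32 with an adjusted p of 0.034 in edgeR, the 1 receptor called in that fit beside 2.06% of genes.

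Summed over the 75 genes, the receptors took 336, 412 and 290 TPM in timeless, 229, 252 and 203 TPM in ddx11, 348, 434 and 214 TPM in fancj and 239, 221 and 229 TPM in wild type libraries. GPR27, GPR142 and GPRC5C together made up 120, 100 and 126 TPM of this in timeless, 17.1, 28.4 and 20.8 TPM in ddx11, 161, 233 and 110 TPM in fancj, and 5.23, 6.84 and 8.92 TPM in wild type libraries. The total of fancj replicate 3 lay within the range of ddx11 libraries, although these 3 genes made up 110 TPM of it.

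Gene order was read among the protein-coding genes of the RefSeq annotation of GRCg7b, with other kinds of genes left out. This is a later assembly than the GRCg6a of the deposited tables, and 70 of the 75 genes were matched in it. GPR142 and GPRC5C are immediate neighbours in that order. The gene on the other side of GPR142, BTBD17, which encodes a BTB domain protein, is named here after its values were seen. It had 9.63, 17.5 and 12.8 TPM in timeless, 0.11, 0.76 and 0.38 TPM in ddx11, 4.60, 6.04 and 4.45 TPM in fancj and 0.17, 0.18 and 0 TPM in wild type libraries. Its wild type level rested on 3, 12 and 0 counts. BTBD17 was higher in timeless (log2 fold change 6.70, SE 0.60, adjusted p = 0.000691, edgeR) and the libraries labelled fancj (5.33, SE 0.77, adjusted p = 0.0151, edgeR) than in wild type, and was too low to be tested in ddx11 cells. BTBD17 was under 1 TPM in every wild type library, so it entered these tests only through the mutant. Such a filter favours genes that are higher in the mutant. Without fancj replicate 3 its log2 fold change in fancj was 5.17 (adjusted p = 0.0136, edgeR).

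Beyond GPRC5C, CCDC137 had 87.4, 82.8 and 90.4 TPM in timeless, 100, 104 and 102 TPM in ddx11, 87.7, 75.7 and 69.3 TPM in fancj and 81.4, 88.3 and 97.1 TPM in wild type libraries, with log2 fold changes of 0.03, 0.13 and -0.14 in the 3 mutants. OXLD1 and PDE6G, the next genes, were not altered in any mutant. The altered genes at this place were thus 3 neighbours in a row among protein-coding genes, with BTBD17 tested only through its level in the mutants. Genes beyond BTBD17 were not analysed here.

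**Figure D4:**
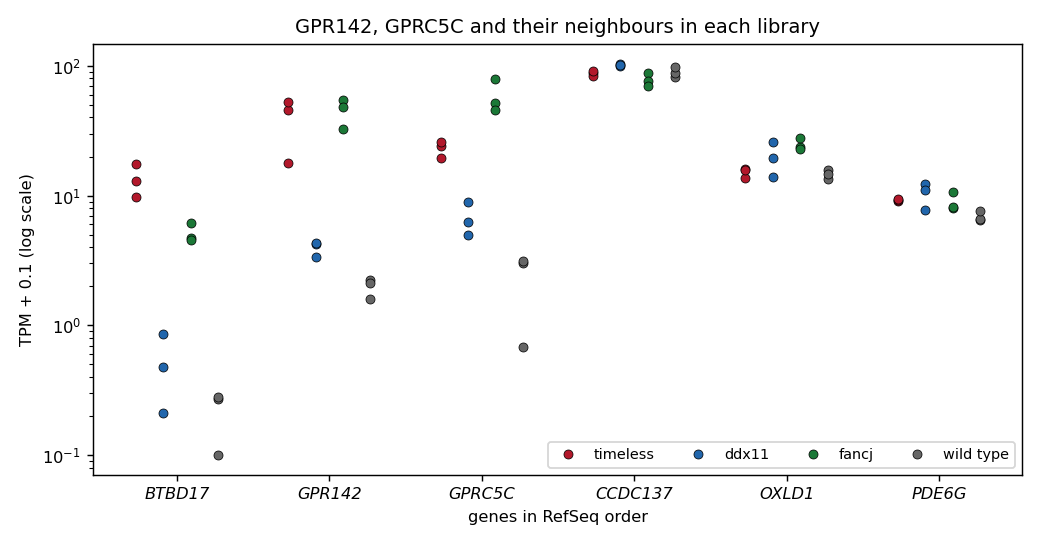
TPM + 0.1 on a log scale for GPR142, GPRC5C and neighbouring protein-coding genes in RefSeq order, with 1 point per library of each line. BTBD17, GPR142 and GPRC5C stand higher in timeless and fancj libraries than in wild type, while CCDC137 lies between 69.3 and 104 TPM in all lines.

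Among the 4 genes on each side of GPR27, GPR174 and GPR183, those tested did not pass the threshold in any mutant against wild type. Beside GPR157 and GPR37, neighbours did pass. SLC2A5, next to GPR157, was higher in the libraries labelled fancj (log2 fold change 3.00, SE 0.52, adjusted p = 0.0262, edgeR) and under 1 TPM in every wild type library. ARL8BL, next to GPR37, was higher in ddx11 cells (2.09, SE 0.36, adjusted p = 0.018, edgeR). EIF4E3, beside GPR27, had 0.22, 0.54 and 0.42 TPM in timeless, 0.07, 0.05 and 0.05 TPM in ddx11, 0.22, 1.11 and 1.16 TPM in fancj and 0, 0.02 and 0 TPM in wild type libraries. Every mutant library of EIF4E3 lay above every wild type library, but the gene was too low to be tested. RYBP, on the other side of GPR27, had log2 fold changes of 0.13, 0.36 and 0.62 in timeless, ddx11 and the libraries labelled fancj. GPR18, the neighbour of GPR183, had 0.62, 0.62 and 0.16 TPM in timeless, against 1.72, 1.31 and 0.70 TPM in wild type libraries, with a log2 fold change of -1.36 (SE 0.62, adjusted p = 0.248, edgeR), opposite in sign to that of GPR183. P2RY10, a lysophospholipid receptor gene near GPR174, had log2 fold changes of -1.69 (adjusted p = 0.107, edgeR) in timeless and -1.61 (adjusted p = 0.0921, edgeR) in the libraries labelled fancj.

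No receptor was switched on or off against wild type by a rule of at most 3 expected counts in each library of one line and at least 10 in each library of the other. By this rule 58 of all genes were on and 15 off in timeless, 8 on and 10 off in ddx11, and 81 on and 18 off in the libraries labelled fancj. GPR27 and GPR142 were not among them because wild type libraries gave 25 to 91 counts of GPR27 and 22 to 59 counts of GPR142. Between mutants, GPR85 was on in timeless against ddx11 cells, where 51 of all genes were on and 19 off.

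Low receptors came close to the rule. GPR85, of the same family as GPR27, had 41, 15 and 33 expected counts in timeless, 0 in each ddx11 library, 0, 4 and 2 in fancj, and 0, 43 and 19 in wild type libraries. With 3 counts per ddx11 library as the limit, the level of timeless cells was at least 11-fold higher. The wild type libraries were split, with replicate 1 at 0.

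GPR39, a zinc-sensing receptor, had 21.93, 9 and 17 expected counts in timeless, 0 in each ddx11 library, 0, 7 and 7 in fancj and 0, 2 and 0 in wild type libraries. It was higher in timeless cells with no limit on TPM (adjusted p = 0.00698, edgeR), in a fit that called 7.62% of 18219 genes. Against the same limit the level of timeless cells was at least 5.94-fold higher than that of ddx11 cells.

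GPR55, a lysophosphatidylinositol receptor, had 0, 1 and 0 expected counts in ddx11, 3, 0 and 1 in fancj, 12, 2 and 16 in timeless and 5, 37 and 9 in wild type libraries. With no limit on TPM it and GPR85 were lower in ddx11 than in wild type cells (adjusted p = 0.0126 for GPR55 and 0.021 for GPR85, edgeR), in a fit that called 2.84% of 18078 genes.

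GPR34, a lysophosphatidylserine receptor like GPR174, had 6, 2 and 0 expected counts in timeless, 0, 0 and 2 in ddx11, 2, 31 and 74 in fancj and 0 in each wild type library. It was at least 12.5-fold higher in the libraries labelled fancj than in wild type cells, but fancj replicate 1 was itself under the limit of 3 counts. GPR50, a melatonin receptor relative, had 10, 19 and 9 expected counts in ddx11, against 3, 3 and 2 in wild type libraries, and no more than 3 in any timeless or fancj library. With no limit on TPM, GPR34 was not called in the libraries labelled fancj against wild type, in a fit that called 3.83% of genes. GPR50 was likewise not called in ddx11 against wild type, in a fit that called 2.84% of genes.

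**Figure D5:**
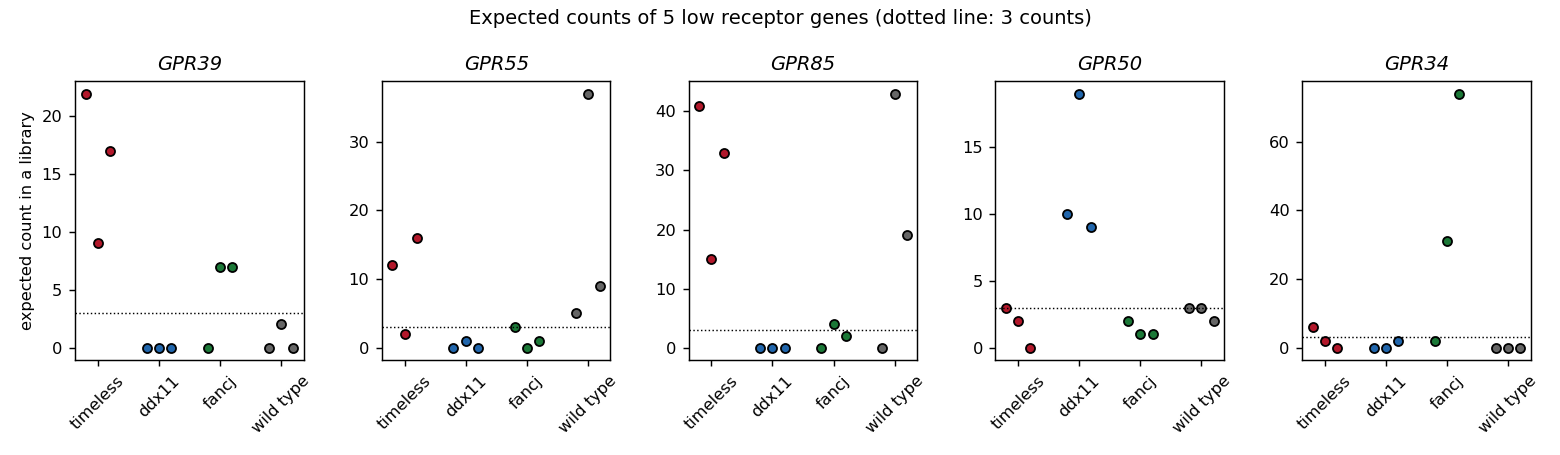
Expected counts of 5 receptor genes of low level in each library, with a dotted line at 3 counts. GPR39 and GPR85 lie at 0 in all ddx11 libraries and at 9 to 41 counts in timeless libraries, while GPR34 lies above the line only in fancj replicates 2 and 3 and timeless replicate 1.

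The machinery downstream of these receptors was read from a list of 64 G protein subunit, receptor kinase, arrestin, RGS and effector genes. In timeless cells 3 of 36 tested were higher and none lower (8.33%), beside 8.20% of all genes altered and 4.31% higher. They were ADCY3 and ADCY7, which encode adenylyl cyclases, and GNG12, which encodes a G protein gamma subunit. In ddx11 cells GNG12 alone of 36 passed (2.78%), beside 2.62% of all genes. In the libraries labelled fancj 5 of 37 were higher and none lower (13.5%), beside 4.28% of all genes altered and 2.87% higher. All list genes called except RGS2 were under 1 TPM in every wild type library, so they entered the test only through the mutant. This filter favours genes that are higher in the mutant. With 1 TPM asked of both lines, 0 list genes were called in each mutant, and the share over all genes is not given here. GNG12 had 2.25, 3.90 and 3.37 TPM in timeless, 1.60, 1.19 and 0.94 TPM in ddx11, 2.80, 8.31 and 5.36 TPM in fancj and 0.23, 0.16 and 0.29 TPM in wild type libraries. Each mutant lay above wild type without overlap, with log2 fold changes of 3.94 (adjusted p = 0.00339, edgeR), 2.44 (adjusted p = 0.0369, edgeR) and 4.70 (adjusted p = 0.0117, edgeR). Without fancj replicate 3 the GNG12 value in fancj was 4.48 (adjusted p = 0.0122, edgeR). The ddx11 call of GNG12 was lost in each of the 6 fits that left out a library.

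The other 4 genes higher in the libraries labelled fancj were GNAL, a G alpha subunit of olfactory neurons, and RGS2, RGS7 and RGS11, which speed the hydrolysis of GTP by G alpha subunits. RGS2 had 7.32, 25.6 and 15.7 TPM in fancj, against 3.63, 3.61 and 2.96 TPM in wild type libraries (log2 fold change 2.31, SE 0.49, adjusted p = 0.0488, edgeR). RGS11 had 46, 35 and 86 expected counts in fancj and 0 in each wild type library, at least 18.6-fold higher against a limit of 3 counts per library. Blocking on replicate left 3 of the 37 list genes called in the libraries labelled fancj (GNG12, RGS7 and RGS11). The count moved with single libraries. Without fancj replicate 3 it was 8, of which 6 were higher and 2 lower, and RGS2 lost its call. In that fit GNAL, RGS7 and RGS11 kept theirs (adjusted p = 0.0266, 0.0192 and 0.0182, edgeR). The count was 2 without fancj replicate 2 and 0 without any 1 of the wild type libraries. In timeless cells the count was 1 without wild type replicate 2 and 1 without wild type replicate 3. Shares of all genes called in these fits are not given here. None of the G alpha subunits, kinases or arrestins tested passed the threshold in timeless or ddx11 cells.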

How the data were processed

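Poly(A) RNA from 12 DT40 cell populations, 3 per line, was sequenced, and the authors aligned reads to GRCg6a with Bowtie2 and estimated gene levels with RSEM, whose versions are not given in the sources used here. The deposited tables hold expected counts, which share reads among similar genes, and TPM, scaled by the authors for transcript length and depth. FPKM columns were not used.

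Groups came from the labels. Expected counts were rounded and tested with edgeR 4.0.16 (TMM, quasi-likelihood, Benjamini-Hochberg over all genes tested, threshold 0.05) on genes averaging 1 TPM or more in either line compared. Each SE is the log2 fold change divided by the square root of F. On simulated counts of 11653 genes for timeless against wild type, 94.5% of 200 genes changed 4-fold were recovered. The simulation used the same dispersion for all genes, no outlying library and no changed genes of very low level. It checks the code and does not give the power in these data. No libraries of a line agreed within sampling noise.

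Receptors described by library are those altered in a comparison or switched, GPR142, GPR27 and the 6 highest in wild type. The values of 1 receptor are not reported here. Others were singled out after their values were seen. The receptors and lists were chosen with earlier results of these data known.

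Same-numbered libraries deviated together, with every correlation over 0.1, in fancj and wild type (0.118 to 0.219), timeless and ddx11 (0.273 to 0.493), and fancj and timeless (0.182 to 0.383). The labels give no source for this pairing. Alternatives were DESeq2 1.42.0, other filters and thresholds, a replicate block, all 12 libraries in 1 fit, and each library left out.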

Additional observations from a re-analysis of the deposited data

Results flagged for a closer look

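Results appear here because the effects of 2 mutants differed in a direct test of one mutant against the other. Timeless cells were higher than ddx11 cells in GPR183 by a log2 fold change of 2.88, GPRC5C by 1.92, GPR142 by 3.46 and GPR27 by 2.32. Libraries labelled fancj were higher than ddx11 cells in GPR142 by 3.63 and GPRC5C by 3.23, and their log2 fold change in GPR174 was -2.12. GPR142, GPR27 and GPRC5C kept their calls in all 6 fits of timeless against ddx11 that left out a library, and GPR183 in 3 of 6. In fancj against ddx11, GPR142 kept its call in 4 of 6 such fits, GPRC5C in 2 of 6 and GPR174 in 2 of 6.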

How the results depend on the processing

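Over 17 altered results of named receptors, 238 alternatives gave no reversal, and 29 of them, spread over 6 results, lost the call. Among results that were not called, GPR37 in timeless against wild type turned to -0.85 without timeless replicate 2, and ranged from there to 1.11 over the libraries left out. A threshold of 0.01 left 0 receptors altered in ddx11 against wild type, 3 in timeless against ddx11 and 1 in fancj against ddx11, and 1, 0 and 0 G protein list genes in timeless, ddx11 and fancj. DESeq2 called 3 receptors in ddx11 and 7 in fancj against wild type, and 10, 2 and 8 list genes. In fancj against timeless it called 6 receptors, beside 7.08% of all genes. With no limit on TPM, 6 of 63 receptors were called in timeless against wild type. The counts were 4 of 63 in ddx11 and 6 of 65 in fancj against wild type. Between mutants the counts were 9 of 61 in timeless against ddx11 and 1 of 63 in fancj against timeless. In fancj against ddx11 the count was 4 of 64. The shares over all genes in these fits were, in the same order, 7.62%, 2.84%, 3.83%, 4.71%, 1.42% and 1.71%. With no limit on TPM the list had 3 in ddx11. With 1 TPM asked of both lines, the counts were 0 in ddx11 against wild type, 3 in timeless against ddx11 and 0 for the list in each mutant. All 12 libraries in 1 fit gave 2 in fancj against timeless. With the replicate block, 0 receptors were called in ddx11 against wild type (GPR27 adjusted p = 0.0959, edgeR), beside 1.24% of all genes. In fancj against timeless 1 was called, beside 2.06%, and the list had 0 and 3 in ddx11 and fancj. GPR27 gained a call in fancj against ddx11 with the block (adjusted p = 0.0311, edgeR), and beside these and the calls given in the text it changed no other call of a named receptor. In ddx11 against wild type the correlations of same-numbered libraries ran from -0.2252 to 0.04358, and in fancj against ddx11 from -0.02485 to 0.3125. Whether such libraries share more than a number is not given in the labels. Leaving out 1 library gave ranges of 0 to 1 receptors in ddx11 against wild type, 3 to 7 in timeless against ddx11, 0 to 1 in fancj against timeless and 0 to 5 in fancj against ddx11, and 1 to 3, 0 to 1 and 0 to 8 list genes in timeless, ddx11 and fancj. Shares over all genes are not given here for the threshold of 0.01, DESeq2 against wild type or 1 TPM in both lines. They are also not given for the fit of 12 libraries or the libraries left out. Those counts show only how calls moved with the rule. Taking 5 counts as on switched 1, 2 and 1 receptors in timeless, ddx11 and fancj against wild type. Of all genes, this looser rule switched on 129, 25 and 167 and switched off 35, 26 and 58 in the same lines. Leaving out 1 library switched 0 to 1 receptors in each, with no count over all genes given here. The count of a G4 motif in promoters was not run, since no promoter sequence was used here. Depth limits receptors of a few counts, and the causes of these shifts were not tested.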
